A study of Mus musculus with 6 samples.

Results

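The genes described are the ligands, receptors and secreted antagonists of the Wnt pathway in sham-operated mouse sciatic nerve. They were chosen by gene symbol among transcripts annotated as protein-coding: Wnt, Fzd (Frizzled), Sfrp, Dkk and Rspo genes, with Frzb, Wif1, Notum, Lgr4, Lgr5, Lgr6, Lrp5, Lrp6, Ror1, Ror2, Ryk, Axin1, Axin2, Znrf3 and Rnf43. This gave 57 genes of 54309 gene identifiers in the data, with 110 protein-coding transcripts.

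C57BL/6J mice of both sexes, aged 6 to 8 weeks, gave their left sciatic nerves 24 h after a sham operation, in which the nerve was exposed at mid-thigh but not cut. Each of the 3 female and 3 male samples pooled the nerves of 2 mice, so replicates came from separate animals, and both groups had the same operation. The labels name no transgene or mutation, and no unoperated nerve is among these samples. Axotomized nerves were not analysed here. Poly-A selected RNA gave 55949876 to 66285694 estimated read pairs in a female pool and 59165914 to 78473057 in a male one.

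Wnt proteins are secreted, lipid-modified ligands that bind Frizzled receptors together with Lrp5 or Lrp6 to stabilise beta-catenin, or with Ror and Ryk receptors to act through other routes. Frizzled-related proteins and Wif1 bind the ligands outside the cell, Dickkopf proteins block Lrp5 and Lrp6, and R-spondins with Lgr receptors keep Frizzleds at the surface by holding back the ligases Znrf3 and Rnf43. In peripheral nerve, Wnt signalling is known to act on myelin gene expression in Schwann cells.

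A level below is the TPM of a gene (a value per unit of transcript length, scaled to the same total in every pool) summed over its protein-coding transcripts. Fold changes, their SE and p-values come instead from whole-gene read counts over all transcripts, tested with edgeR on the 16310 genes with a CPM (count scaled to library size) of at least 0.5 in at least 3 pools. Of the 57 genes, 43 passed that filter, and 14 had too few reads. The tissue carried the markers of a nerve: all 12 genes of a myelinating Schwann cell list passed the filter and summed to 34784 to 43974 TPM per pool, while 2 of 8 keratinocyte genes passed and Krt5 and Dsg3 were at 0 in every pool. A neutrophil list, with 6 of 8 genes past the filter, summed to 3437 to 6049 TPM per pool. Female replicate 2 stood apart, with a fast skeletal muscle list at 4515 TPM where the other pools had 106 to 370 TPM. Nerves were sequenced whole, so fewer cells of a type and less RNA per cell cannot be told apart.

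The bases just upstream of a gene's start are shown for 3 genes: Sfrp5, the most abundant of the 57 genes, and Lrp6 and Rspo1, the tested genes with a TCF/LEF motif in that window. TCF and LEF proteins are the DNA-binding partners of beta-catenin. Each sequence gives the 250 bases before the start of the leading coding transcript, 5′ to 3′ on the gene's own strand, from GRCm39 with GENCODE M39 starts: Sfrp5 at chr19:42190692-42190941 on the minus strand, Lrp6 at chr6:134544213-134544462 on the minus strand and Rspo1 at chr4:124879626-124879875 on the plus strand. Capitals mark the motif.
Sfrp5: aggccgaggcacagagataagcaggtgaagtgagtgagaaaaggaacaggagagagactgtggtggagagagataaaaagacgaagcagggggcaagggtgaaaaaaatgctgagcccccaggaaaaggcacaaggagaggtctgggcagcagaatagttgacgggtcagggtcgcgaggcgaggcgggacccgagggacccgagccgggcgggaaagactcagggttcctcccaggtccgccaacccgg
Lrp6: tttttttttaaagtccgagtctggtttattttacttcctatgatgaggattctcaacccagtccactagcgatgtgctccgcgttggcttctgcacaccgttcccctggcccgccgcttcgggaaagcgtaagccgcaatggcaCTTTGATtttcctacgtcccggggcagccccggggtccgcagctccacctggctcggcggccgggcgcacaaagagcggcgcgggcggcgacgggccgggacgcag
Rspo1: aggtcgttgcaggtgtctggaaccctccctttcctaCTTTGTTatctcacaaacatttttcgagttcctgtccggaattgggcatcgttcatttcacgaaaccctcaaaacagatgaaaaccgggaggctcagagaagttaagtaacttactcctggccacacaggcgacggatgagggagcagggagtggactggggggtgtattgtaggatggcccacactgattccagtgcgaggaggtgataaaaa
The motif searched was CTTTG with A or T at both following positions, on either strand. It began 106 bases upstream of the start of Lrp6, the Wnt co-receptor, and 214 bases upstream of Rspo1, a secreted R-spondin. Of the 43 tested genes, 2 held it (4.65%), beside 12.3% of the windows of 14169 tested protein-coding genes. Windows of the Wnt genes had a median GC content of 62.4%, against 56% for all windows, and a median of 17 CpG dinucleotides against 11. A match is a description of letters and not a binding site, and the absence of one says nothing of other positions.

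Secreted antagonists made up most of the TPM of the 57 genes. The 57 genes summed to 1309 to 1513 TPM per pool, of which Sfrp5 alone held 35.7% to 41.2% and Sfrp5 with Sfrp4 held 58.7% to 62.3%. The 5 frizzled-related genes (Sfrp1, Sfrp2, Sfrp4, Sfrp5 and Frzb) reached 860 to 1046 TPM, against 127 to 151 TPM for the 10 Frizzled receptors and 62.7 to 76.8 TPM for the 19 Wnt ligands. Per pool, frizzled-related transcripts outnumbered ligand transcripts 11.5, 12.3 and 13.6 times in females and 13.7, 14.4 and 14.6 times in males. The male ratios all lay above the female ones, at the nearest by 13.7 against 13.6, in a ratio with no test of its own. The ratio of frizzled-related to Frizzled transcripts overlapped between the sexes, at 6.01 to 6.92 in females and 6.79 to 7.24 in males. The Frizzled sum was 1.92 to 2.06 times the ligand sum in the 6 pools.

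**Figure D1:**
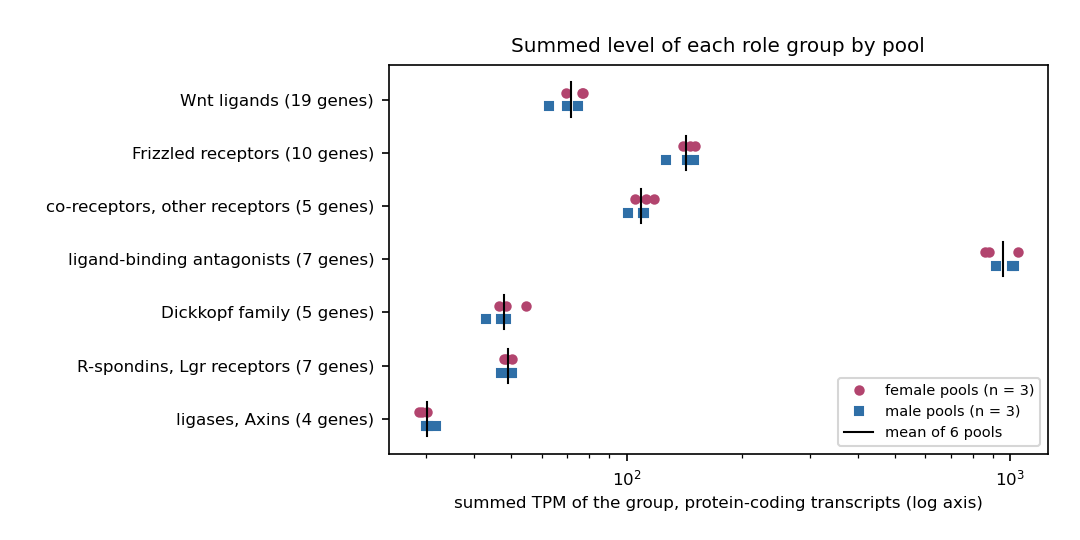
Summed TPM of each role group (log axis) in the 3 female pools (circles) and 3 male pools (squares), with the mean of the 6 pools as a vertical line. The ligand-binding antagonists sit at 861 to 1046 TPM, above every other group, and the ligases and Axins are lowest at 28.7 to 31.8 TPM.

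Of the 57 genes, 35 had a mean of at least 1 TPM and 20 of at least 10 TPM. Ranked among 14243 tested genes with protein-coding transcripts, 18 lay above the 50th percentile (15 TPM) and 6 above the 75th (37.1 TPM): Sfrp5, Sfrp4, Ryk, Fzd2, Frzb and Dkk3. Wnt3a and Dkk4 had no read in any pool, where a count of 0 allows up to 0.0536 CPM in the shallowest pool and 0.0382 CPM in the deepest (3 counts, counting error only). The 12 other genes under the filter were Dkk1, Dkkl1, Notum, Rnf43, Rspo2, Rspo4, Wnt1, Wnt3, Wnt7a, Wnt8a, Wnt8b and Wnt9b, with 1 to 130 reads each over all 6 pools.

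**Figure D2:**
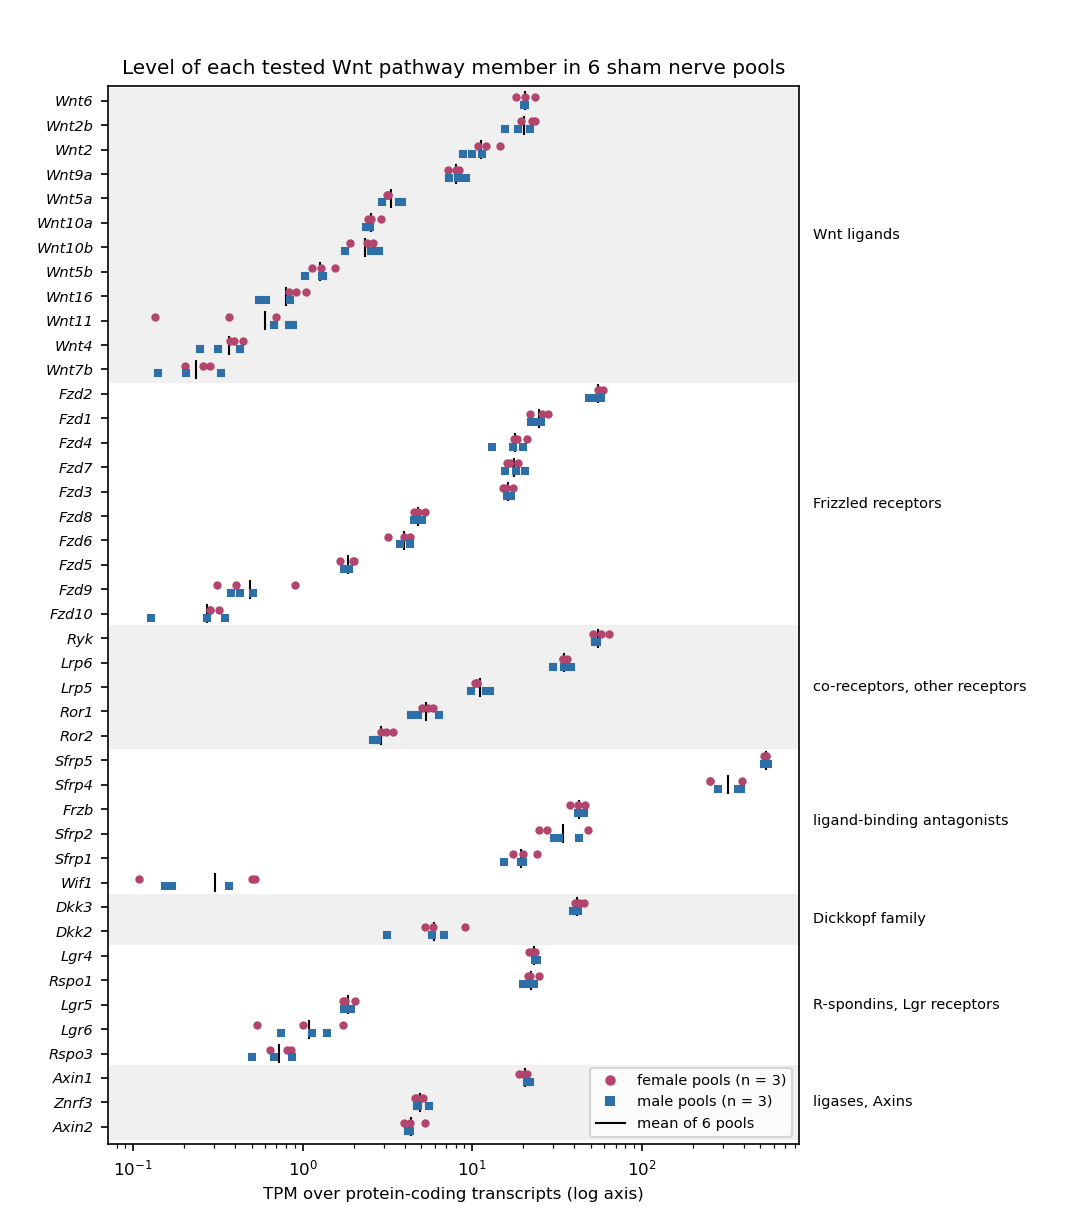
TPM over protein-coding transcripts (log axis) of the 43 tested genes by role, with female pools as circles, male pools as squares and the mean of 6 pools as a vertical line. Sfrp5 and Sfrp4 lie farthest right at means of 537 and 322 TPM, while the points of Wnt11, Wif1 and Lgr6 spread most along the axis.

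Among the ligands, Wnt6, Wnt2b and Wnt2 together held 69.9% to 74.7% of ligand TPM. Wnt6, on GRCm39 chromosome 1 (74810922 to 74824975, plus strand), was at 18.1, 20.6 and 23.4 TPM in female replicates 1 to 3 and at 20.4, 20.3 and 20.6 TPM in the male ones. Wnt2b was at 23.4, 19.4 and 22.4 TPM in the female pools and 21.9, 18.6 and 15.6 TPM in the male pools. The levels of Wnt6 and Wnt2b changed order between pools and did not differ beyond their spread (exact sign-flip permutation test, two-sided, 6 pools, adjusted p = 0.68). Wnt2, on chromosome 6 (17985468 to 18031892, minus strand), was at 14.6, 12.0 and 10.8 TPM in the female pools and 11.4, 10 and 8.80 TPM in the male pools, below Wnt2b in all 6 pools (adjusted p = 0.047, same exact test).

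Wnt9a followed at 7.86 ± 0.602 TPM in the female pools and 8.25 ± 0.921 TPM in the male pools (SD, n = 3 pools each). Wnt5a, a ligand best known for routes that do not need beta-catenin, was at 3.18 ± 0.0280 TPM in the female pools and 3.49 ± 0.491 TPM in the male pools. Wnt10a and Wnt10b averaged 2.53 and 2.33 TPM and did not separate (adjusted p = 0.32, exact sign-flip permutation test), and Wnt5b averaged 1.27 TPM. Wnt16 (0.798 TPM), Wnt11 (0.598 TPM), Wnt4 (0.367 TPM) and Wnt7b (0.236 TPM) passed the filter at means under 1 TPM. The ligands Wnt1, Wnt3, Wnt7a, Wnt8a, Wnt8b and Wnt9b were at 0.00111 to 0.0562 TPM.

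Several ligand genes lie in pairs on a chromosome, and in 3 of 4 pairs 1 gene was much the higher. Wnt10a starts 5700 bases beyond the end of Wnt6, at a mean level of 2.53 TPM beside 20.6 TPM. Wnt9a, at 8.06 TPM, lies 15983 bases from Wnt3a on chromosome 11, which had no reads. Wnt10b and Wnt1 overlap on opposite strands of chromosome 15, at 2.33 and 0.0299 TPM, and the libraries kept strand. Both genes of the pair Wnt9b and Wnt3 were near 0.

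All 10 Frizzled genes passed the filter, and 5 of them (Fzd2, Fzd1, Fzd4, Fzd7 and Fzd3) held 91.4% to 92.4% of Frizzled TPM. Fzd2, on chromosome 11 (102495222 to 102498884, plus strand), was at 59.2, 55.5 and 56.1 TPM in the female pools and 57.1, 54.7 and 49.0 TPM in the male pools. It held 37.1% to 40.5% of the Frizzled sum. Fzd1 was at 25.8, 22.0 and 27.9 TPM in the female pools and 24.9, 25.6 and 22.1 TPM in the male pools. Fzd4, also the receptor for the ligand norrin, was at 18.4, 17.7 and 20.9 TPM in the female pools and 19.8, 17.3 and 13 TPM in the male pools. Fzd4, Fzd7 (17.6 TPM) and Fzd3 (16.3 TPM) could not be placed in order (adjusted p = 0.88 and 0.26 for the neighbouring pairs, exact sign-flip permutation test).

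Fzd8 (4.79 TPM), Fzd6 (3.98 TPM) and Fzd5 (1.84 TPM) were lower, each below the one before it past the threshold. Fzd10 averaged 0.273 TPM. Fzd9 was at 0.313, 0.902 and 0.405 TPM in the female pools and 0.379, 0.427 and 0.509 TPM in the male pools. Its highest value was in female replicate 2, the pool with the muscle transcripts, and the part of muscle in its level was not tested. The log2 fold change of Fzd9, female over male, was 0.39 ± 0.40 (SE) with that pool and -0.19 ± 0.28 without it, neither past the threshold (adjusted p = 0.90 and 1.0 by edgeR).

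Among the other receptors, Ryk, an atypical receptor related to tyrosine kinases, was the most abundant at 64.1, 57.4 and 51.3 TPM in the female pools and 53.3, 53.0 and 54.1 TPM in the male pools. Lrp6 was at 34.2, 36.2 and 34.2 TPM in the female pools and 34.9, 38.3 and 30.0 TPM in the male pools. Lrp5, the second co-receptor of this kind, was at 10.4, 10.6 and 10.7 TPM in the female pools and 12.7, 12.1 and 9.84 TPM in the male pools. Lrp6 lay above Lrp5 in all 6 pools. Ror1 averaged 5.34 TPM. Ror2, a receptor for Wnt5a, was at 3.40, 3.08 and 2.89 TPM in the female pools and 2.76, 2.61 and 2.74 TPM in the male pools, so that its female pools all lay above its male pools.

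Sfrp5, on chromosome 19 (42186410 to 42190691, minus strand), was the highest of the 57 genes and the least variable of the 43 tested. It was at 537, 522 and 539 TPM in the female pools and 553, 524 and 547 TPM in the male pools, a coefficient of variation of 2.31% over 6 pools, at the 98.5th percentile. Sfrp4 was at 252, 253 and 392 TPM in the female pools and 370, 382 and 280 TPM in the male pools. Its coefficient of variation was 20.7%, with the values falling in a lower and a higher range within each sex. Frzb was at 37.6, 42.2 and 46.3 TPM in the female pools and 45.6, 42.0 and 43.9 TPM in the male pools.

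Sfrp2 was at 27.7, 24.9 and 48.4 TPM in the female pools and 32.5, 42.4 and 30.2 TPM in the male pools. Like Sfrp4, it was highest in female replicate 3 and next highest in male replicate 2. Frzb and Sfrp2 did not separate in level (adjusted p = 0.17, exact sign-flip permutation test). Sfrp1 averaged 19.3 TPM. Wif1 was at 0.502, 0.526 and 0.109 TPM in the female pools and 0.170, 0.155 and 0.370 TPM in the male pools, on 9 to 36 reads a pool and with the largest coefficient of variation of the tested genes (60.6%). Notum, an enzyme that removes the lipid from Wnt proteins, averaged 0.137 TPM.

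Of the Dickkopf family, Dkk3, a divergent member, made up most of the sum at 40.5, 42.8 and 45.4 TPM in the female pools and 42.3, 39.9 and 39.2 TPM in the male pools. Dkk2, a ligand of Lrp5 and Lrp6, was at 5.88, 5.27 and 9.07 TPM in the female pools and 5.81, 6.77 and 3.16 TPM in the male pools. Its highest pool was again female replicate 3 and the next male replicate 2. Dkkl1 was at 0.167, 0.34 and 0.30 TPM in the female pools and 0.372, 0.378 and 0.454 TPM in the male pools, below the filter. Dkk1, the inhibitor best known for blocking Lrp6, averaged 0.0334 TPM on 15 reads in all.

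Female replicate 3 also had the highest sums of the epineurial fibroblast list (1061 TPM, against 721 to 904 TPM in the other pools) and of the white adipocyte list (2181 TPM, against 1154 to 1537 TPM). All 8 and all 12 genes of these lists passed the filter. Much of the epineurial sum was Ly6c1, at 594 TPM in female replicate 3 and 413 to 458 TPM in the other pools. Of that list, Pcolce2, Clec3b, Pi16 and Gpx3 were also highest in female replicate 3, but Comp, Tnxb and Dpp4 in male replicate 1. Male replicate 2, next highest for Sfrp4, Sfrp2 and Dkk2, was at 830 and 1217 TPM for the epineurial and adipocyte lists, within the range of the others. The endoneurial fibroblast list, with all 5 genes past the filter, was highest in male replicate 2 (160 TPM), at 125, 133 and 138 TPM in the female pools and 141 and 133 TPM in male replicates 1 and 3. The part of these cells in the levels was not tested. Without female replicate 3 the log2 fold change of Sfrp4, female over male, went from -0.16 ± 0.22 to -0.41 ± 0.14 (SE), that of Sfrp2 from -0.02 ± 0.28 to -0.36 ± 0.15 and that of Dkk2 from 0.35 ± 0.35 to 0.05 ± 0.32. None passed the threshold with or without that pool (edgeR, adjusted p = 0.50 to 1.0).

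**Figure D3:**
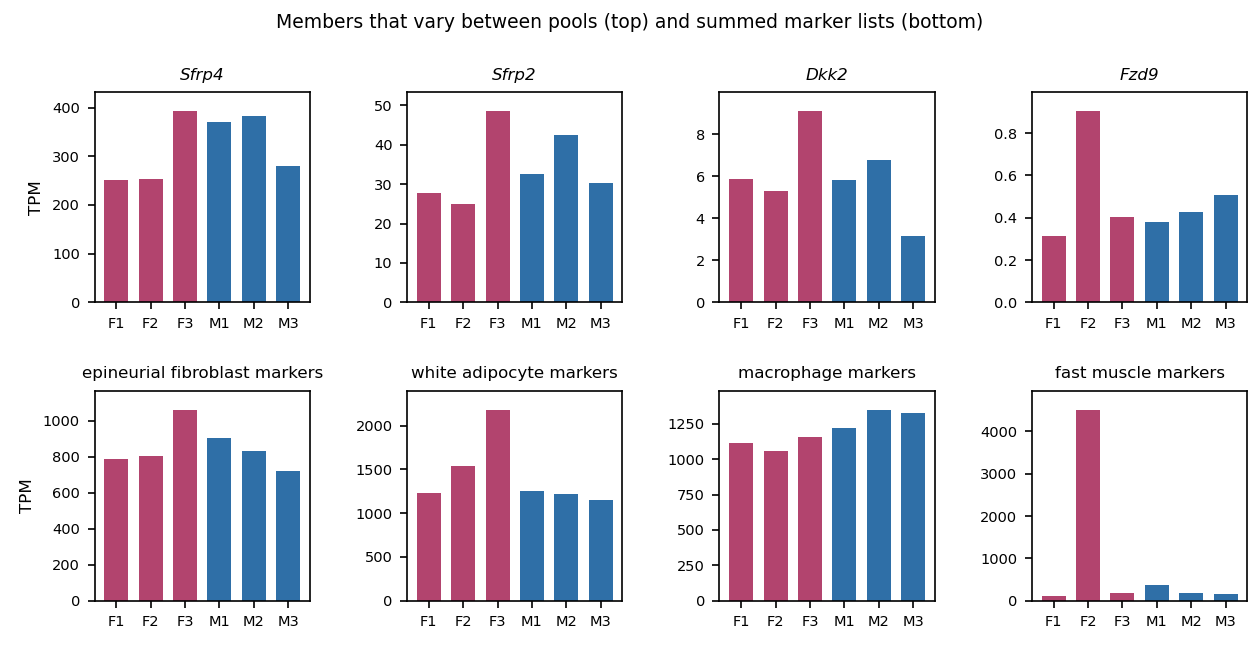
TPM in each pool (F, female and M, male, replicates 1 to 3) of 4 genes that varied between pools, above the summed TPM of 4 marker lists, each on its own axis from 0. Sfrp4, Sfrp2 and Dkk2 are highest in F3, as are the epineurial fibroblast and white adipocyte lists, and Fzd9 is highest in F2, as is the fast muscle list.

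The R-spondin receptor Lgr4 and the ligand Rspo1 were present at like levels. Lgr4, on chromosome 2 (109747839 to 109844609, plus strand), was at 21.7, 23.3 and 22.4 TPM in the female pools and 23.7, 24.2 and 23.5 TPM in the male pools, all male values above all female ones. Rspo1 was at 21.9, 21.3 and 24.6 TPM in the female pools and 23.1, 21.9 and 19.8 TPM in the male pools. The levels of Lgr4 and Rspo1 did not separate (adjusted p = 0.32, exact sign-flip permutation test). Lgr5, a stem cell marker in other tissues, was at 1.74, 2.04 and 1.78 TPM in the female pools and 1.83, 1.76 and 1.94 TPM in the male pools. Lgr6 averaged 1.09 TPM and Rspo3 0.726 TPM, and Rspo2 and Rspo4 stayed at 0.0441 and 0.00866 TPM.

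Axin1, the scaffold of the complex that degrades beta-catenin, was at 21.0, 20.1 and 18.8 TPM in the female pools and 21.8, 21.4 and 20.9 TPM in the male pools. Znrf3, a ligase that removes Frizzleds, was at 4.71, 5.09 and 4.57 TPM in the female pools and 5.57, 4.72 and 4.80 TPM in the male pools. Rnf43, its close relative, averaged 0.127 TPM. Axin2, a widely used readout of beta-catenin signalling, was at 4.29, 3.96 and 5.30 TPM in the female pools and 4.30, 4.18 and 4.21 TPM in the male pools, not separated from Znrf3 (adjusted p = 0.20, exact sign-flip permutation test). Over all role groups, 26 of 36 neighbouring pairs differed past an adjusted p of 0.1 by that test, whose smallest unadjusted p with 6 pools is 0.031, and 24 kept their order in every pool.

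Most of these genes were read from 1 coding transcript, with a few exceptions. Of 44 genes with at least 0.25 TPM over all transcripts, 14 had a single transcript, and 15 of the 30 others had a leading transcript of at least 90%. Wif1 and Wnt11 were led by transcripts not annotated as protein-coding. The retained-intron transcript Wif1-202 held 81.1% of Wif1 TPM (72.7% to 89.4% over pools), and Wnt11-202, annotated for nonsense-mediated decay, held 60.6% of Wnt11 TPM (52.0% to 69.2%). Protein-coding transcripts of Wnt11 were at 0.698, 0.135 and 0.369 TPM in the female pools and 0.832, 0.874 and 0.679 TPM in the male pools. The coding level of Wnt11 was thus lower in the female mean (0.40 against 0.795 TPM), while its whole-gene log2 fold change was 0.08 ± 0.19 (SE). Over all transcripts the mean was 2.52 TPM for Wnt11 and 1.51 TPM for Wif1, against 0.598 and 0.305 TPM over coding ones.

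Frzb (25.8%), Rspo1 (22.3%), Lrp6 (17.9%), Lgr5 (16.1%) and Wnt7b (16.1%) also had at least 10% of their TPM in transcripts not annotated as protein-coding. For Wnt7b this share ran from 0% to 69.8% between pools, on 22 to 40 coding reads a pool. Ryk was divided between 2 coding transcripts, Ryk-203 at 52.8% and Ryk-201 at 44.2%. The leading transcript of Fzd6, Fzd6-202, ranged from 39.9% to 96.1% between pools, and that of Wnt5b, Wnt5b-203, from 0% to 82.7%. Transcripts of a gene share most of their sequence, and how far these ranges reflect the assignment of shared reads was not tested.

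**Figure D4:**
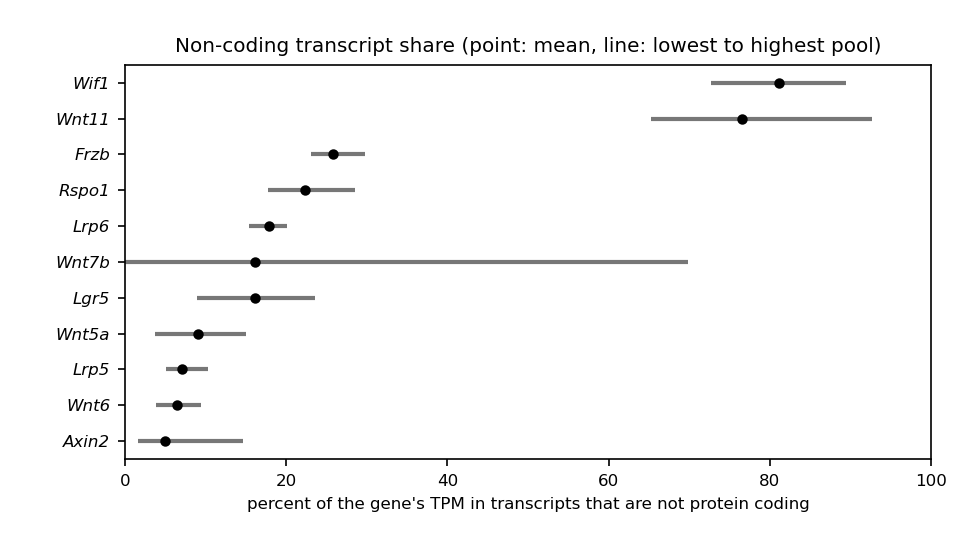
Percent of a gene's TPM in transcripts not annotated as protein-coding, for the 11 genes with a mean of at least 5%, with the mean of 6 pools as a point and the lowest to highest pool as a line. Wif1 and Wnt11 sit above 65% in every pool, and the line of Wnt7b runs from 0% to 69.8%.

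To ask whether uncut nerves of the sexes differed, a fold change of female over male was fitted to each gene. By the quasi-likelihood test of edgeR with Benjamini-Hochberg adjustment at 0.1, 0 of the 43 genes were called, beside 10 of all 16310 genes (0.0613%). The adjusted p-values of the 43 ran from 0.79 to 1.0, and their log2 fold changes reached at most 0.45 (Wnt16, 0.45 ± 0.21 SE). DESeq2 called 0 of 43 beside 0.975% of all genes, and limma with sample weights called 0 of 43 beside 0.159%. At an unadjusted edgeR p under 0.05 there were 2 of 43 (4.65%), Wnt2 and Ror2, a share below the 6.11% of all genes. A gene that was not called may still differ.

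More of the tested genes were on the female side of 0 than on the male side: 28 had a positive log2 fold change and 15 a negative one (65.1% positive, beside 50.6% of all genes). The median was 0.09, against 0.00 over all genes. Of the 12 tested ligands, 10 were positive, with a median of 0.17. Among these, Wnt10b (0.02 ± 0.19 SE) and Wnt11 (0.08 ± 0.19 SE) lay close to 0. Their mean coding levels ran the other way, at 2.29 TPM in females against 2.36 TPM in males for Wnt10b and 0.40 against 0.795 TPM for Wnt11. The frizzled-related and other ligand-binding antagonists were divided 3 and 3, with a median of 0.01. These counts carry no test.

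In normalised CPM (scaled by TMM factors), 5 of 43 genes had every female pool above every male pool, 11.6% beside 5.16% of all genes, and 1 had every male pool above every female pool, 2.33% beside 6.04%. Wnt2 was at 19.5, 15.9 and 14.7 CPM in females and 14.6, 13.1 and 11.9 CPM in males. The lowest female and highest male pool of Wnt2 nearly met, and its log2 fold change was 0.33 ± 0.12 (SE, adjusted p = 0.79 by edgeR). Ror2 was at 9.71, 8.35 and 7.94 CPM in females and 7.09, 6.84 and 7.53 CPM in males, with a log2 fold change of 0.28 ± 0.11 (SE, adjusted p = 0.80 by edgeR). In TPM, Ror2 and Lgr4 were the genes among the 43 whose sexes did not overlap. The share of all genes was counted in normalised CPM only, so these 2 have no share to be set beside.

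Fzd2 was at 114, 102 and 103 CPM in females and 98.4, 98.6 and 92.6 CPM in males, a log2 fold change of 0.14 ± 0.07 (SE, adjusted p = 0.83 by edgeR). Wnt10a was at 3.30, 3.21 and 3.53 CPM in females and 2.77, 2.88 and 3.00 CPM in males, a log2 fold change of 0.21 ± 0.12 (SE, adjusted p = 0.84 by edgeR). The beta-catenin target Axin2 was at 10.2, 10.5 and 13.6 CPM in females and 10.1, 9.25 and 10.1 CPM in males, with female replicate 3 above all others and the remaining pools close together. Its log2 fold change was 0.21 ± 0.12 (SE, adjusted p = 0.84 by edgeR). Lgr4 was at 47.7, 49.6 and 51.2 CPM in females and 51.9, 55.4 and 53.5 CPM in males, a log2 fold change of -0.11 ± 0.06 (SE, adjusted p = 0.84 by edgeR).

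**Figure D5:**
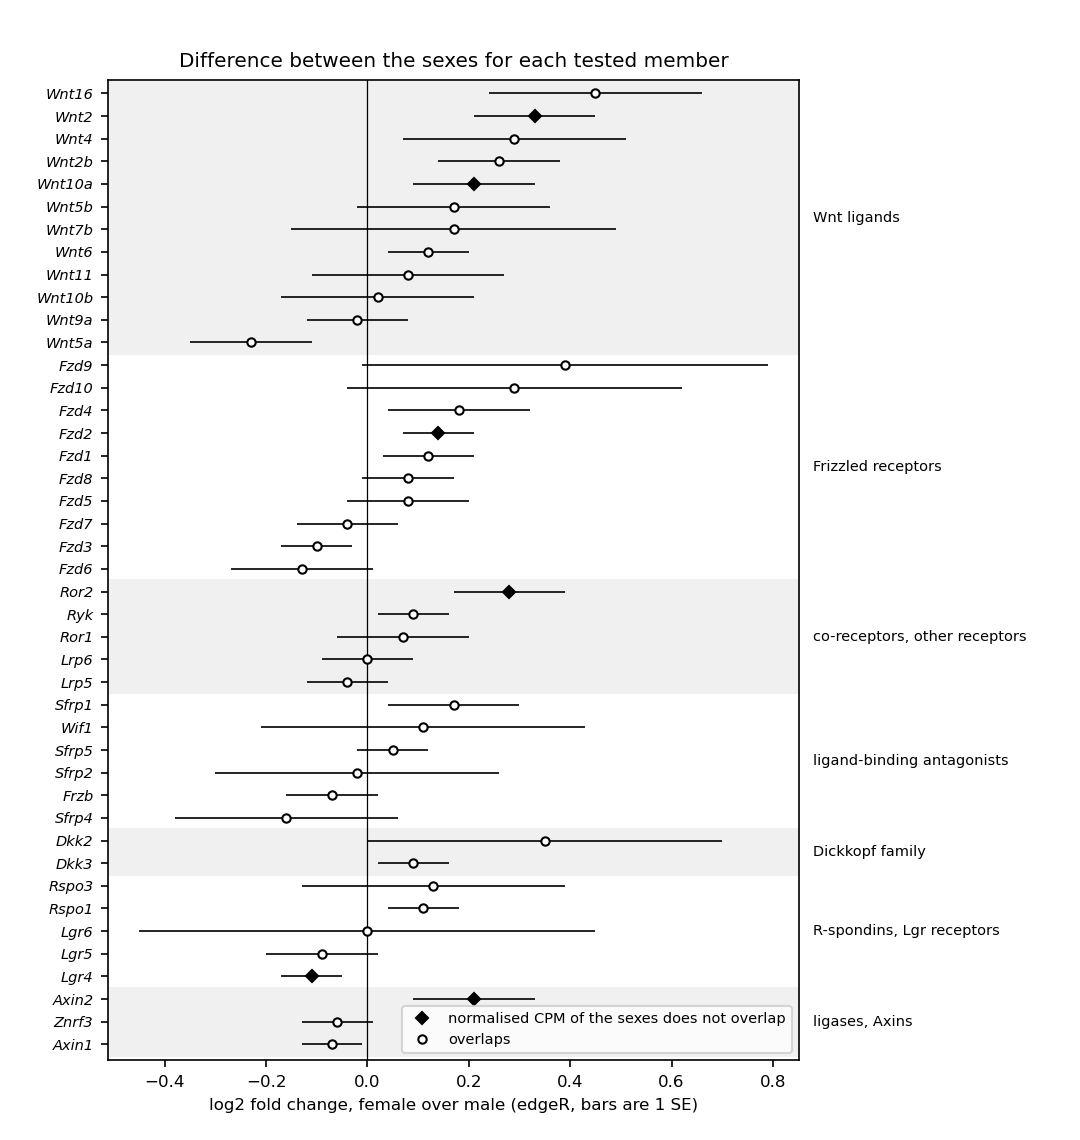
Log2 fold change, female over male, of the 43 tested genes with 1 SE, by role, with filled diamonds where the normalised CPM of the sexes did not overlap. Points run from -0.23 (Wnt5a) to 0.45 (Wnt16), and 10 of the 12 ligands lie right of 0, with no adjusted p under 0.79.

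Of 118 cell type markers that passed the filter, edgeR called 0, limma called 1 (Lep, leptin, an adipocyte hormone) and DESeq2 called 4 (Lep, Csf1r, Cx3cr1 and Comp). Of all genes, edgeR called 0.0613%, limma 0.159% and DESeq2 0.975%. At an unadjusted edgeR p under 0.05, where 6.11% of all genes lay, there were 6 of 8 macrophage markers (75%), 5 of them on the male side. Macrophage sums were 1060 to 1159 TPM in the female pools and 1221 to 1351 TPM in the male pools. The white adipocyte list had the largest lean to females of the lists with a gene at that level (median log2 fold change 0.58), with 2 of 12 genes on the female side and sums of 1233 to 2181 TPM in the female pools and 1154 to 1255 TPM in the male pools. Of the perineurial list, 2 of 8 were on the female side, with sums of 636 to 696 TPM in the female pools and 599 to 673 TPM in the male pools. The pericyte and smooth muscle list had 3 of 9, 1 on the female and 2 on the male side, and the epineurial fibroblast list had 1 of 8, on the male side. The other marker lists had no gene at that level. The part of these cells in the fold changes of the Wnt genes was not tested.

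The rest of the pathway was read from 5 lists of 86 further genes, chosen by role. Of these, 82 passed the filter and 0 were called by edgeR, beside 0.0613% of all genes. At an unadjusted p under 0.05 there were 6 (7.32%, near the 6.11% of all genes), 2 on the female and 4 on the male side. The secretion and extracellular list was led by Gpc3, a glypican that binds Wnt and Hedgehog ligands, at 317 to 363 TPM, and by Sostdc1, a secreted antagonist, at 45.5 to 73.0 TPM. Wls, which carries Wnt proteins to the surface, averaged 51.4 TPM. Among cytoplasmic genes, beta-catenin itself (Ctnnb1) was at 361 to 413 TPM and the kinase Csnk1a1 at 173 to 203 TPM.

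Of the nuclear genes, Tle5 (154 to 177 TPM) and Tle3 (36.0 to 48.1 TPM), both of the Tle family, were highest. Among known targets of beta-catenin, Cd44 was at 123 to 211 TPM and Ccnd1 (cyclin D1) at 44.1 to 64.4 TPM. Rhoa (518 to 542 TPM) and Rac1 (467 to 520 TPM), small GTPases of the planar polarity route and many others, led the last list.

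The 6 genes with an unadjusted p under 0.05 were Dvl1 and Tle1 on the female side and Lypd6, Pygo1, Ccn4 and Nfatc2 on the male side. Nfatc2, a calcium-regulated transcription factor, was at 7.83, 9.23 and 8.58 TPM in the female pools and 10.9, 11.6 and 10.5 TPM in the male pools, without overlap. Its log2 fold change was -0.32 ± 0.07 (SE, adjusted p = 0.45 by edgeR), and DESeq2 called it (adjusted p = 0.057). The others had log2 fold changes of 0.19 ± 0.06 (Dvl1), 0.15 ± 0.06 (Tle1), -0.63 ± 0.24 (Lypd6), -0.24 ± 0.10 (Pygo1) and -0.25 ± 0.07 (Ccn4), with adjusted p from 0.60 to 0.81 by edgeR.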

How the data were processed

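The authors trimmed strand-specific, poly-A selected, paired reads with Trimmomatic 0.39 and quantified transcripts with Salmon, at version 1.5.2 in the submitters' notes. The annotation was GENCODE mouse on GRCm39, of which the sources name different releases. The deposited files list estimated counts of read pairs for each transcript, which can be fractional and were not normalized further. They also hold a TPM, which the authors' software divided by effective length and scaled to the same total in each pool, so that an abundant RNA lowers all other TPM values of its pool. The deposited lengths and effective lengths entered 1 alternative.

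Here estimated counts were summed by gene identifier over all transcripts and rounded, and the sexes were compared with edgeR 4.0.16 in R 4.3.3 (a robust quasi-likelihood fit with TMM factors and no covariate, Benjamini-Hochberg adjustment over 16310 genes, threshold 0.1). The common biological coefficient of variation was 0.154. Levels sum TPM over protein-coding transcripts. Neighbours in level were compared by an exact sign-flip permutation test of log2 ratios over 6 pools. With 3 pools per sex, an exact permutation test between sexes cannot give a p under 0.1. Pools of a sex differed by a chi-square of 25.4 to 68.8 per gene, so no library was entered repeatedly. Upstream windows were read from GRCm39 at GENCODE M39 starts, and are printed for some genes only. The fits were tested on simulated data.

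The genes described, their roles and the lists were chosen with earlier results of these data known. Pool values are given for the 3 highest genes of each role, genes at an unadjusted p under 0.05 and the 3 tested genes of largest coefficient of variation. Fold changes are given for the second group, for genes called by any tool and for genes whose sexes do not overlap. Of other pathway genes, the 2 highest of each list and those at an unadjusted p under 0.05 are named. Sfrp2, Wls, the fold changes of Fzd9, Sfrp4, Sfrp2, Dkk2, Wnt10b, Wnt11 and Wnt16, the marker genes and the genomic neighbours were added after their values were seen. Alternatives were RLE factors, a transcript length offset, no filter, a stricter filter, protein-coding transcripts alone, a replicate block, DESeq2 1.42.0, limma 3.58.1 with sample weights and each pool left out.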

Additional observations from a re-analysis of the deposited data

How the results depend on the processing

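None of the 43 tested ligands, receptors and antagonists was called under any of the 14 alternatives to the edgeR fit, and the lowest adjusted p of any of them was 0.21 (Wnt5a, limma). The fold changes of Wnt2, Ror2, Fzd2, Wnt10a, Axin2 and Lgr4 kept their direction in all 84 refits. In that order, their ranges on the log2 scale were 0.21 to 0.43, 0.17 to 0.34, 0.08 to 0.17, 0.09 to 0.25, 0.08 to 0.29 and -0.14 to -0.08. For Ror2, Fzd2, Wnt10a and Lgr4 the weakest value came with the transcript length offset. For Wnt2 it came without female replicate 1 and for Axin2 without female replicate 3. The 2 genes at an unadjusted p under 0.05 became 1 with a transcript length offset and 5 with limma, and 0 to 5 with a pool left out. They became 0 without female replicate 1 or male replicate 2, 4 without female replicate 2 or male replicate 1, and 5 without female replicate 3. The share of all genes at that level was counted in the main fit only (6.11%). The counts under the alternatives thus have no share to be set beside, and nothing particular to these genes can be read from them.

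Of all genes, 10 were called in the main comparison, 49 with no filter, 159 by DESeq2, 26 by limma and 4 to 9 with a pool left out, the fewest without female replicate 1 (4) and male replicate 1 (5). With the replicate block 5 were called. The replicate numbers showed no sign of pairing the samples: pools of the same number correlated at -0.181, -0.164 and -0.150 across the sexes. Pools of different numbers gave the highest correlations. These were 0.307 for female replicate 3 with male replicate 2, 0.233 for female 2 with male 1 and 0.201 for female 1 with male 3. The correlations are of deviations from the mean of the 3 pools of a sex, so negative ones come with positive ones elsewhere. Whether the pools of these pairs shared anything was not tested. DESeq2 called 1 other pathway gene, Nfatc2, where edgeR called 0. The causes of these changes were not tested.

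The 6 genes whose sexes did not overlap became 8 to 15 with a pool left out, when fewer pools had to separate. The share of all genes rose from 11.2% to between 17% and 27.8%. Without female replicate 2, 15 of 43 (34.9%) did not overlap beside 17% of all genes. With another pool left out, the shares lay nearer each other. They were 20.9% beside 19.3% without female replicate 1 and 27.9% beside 27.8% without female replicate 3. Without male replicates 1, 2 and 3 they were 27.9%, 18.6% and 30.2%, beside 20.5%, 18.2% and 27.2%. With RLE factors 7 genes did not overlap, with the stricter filter 6 and with protein-coding transcripts alone 4. The share of all genes was not counted in these settings. Counted over all transcripts, 4 of the 35 mean levels of at least 1 TPM moved by more than the spread of the pools: Lrp6 to 42.1 TPM, Frzb to 57.9 TPM, Rspo1 to 28.5 TPM and Lgr5 to 2.21 TPM. Below 1 TPM, Wif1 went from 0.305 to 1.51 TPM and Wnt11 from 0.598 to 2.52 TPM. Of the tested genes, Wif1, Wnt7b, Fzd10, Fzd9, Wnt11 and Wnt16 had the fewest coding reads, 132 to 293 over 6 pools.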
